A study of Homo sapiens with 2 samples.

Results

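The splicing factors measured here were the gene names on the array that began with SRSF, HNRNP, SF3A, SF3B, PRPF, SNRP, U2AF, CWC or SREK1 in the form used by the human gene families of these names. They made up 78 gene names with 126 probes, of 25940 gene names with 34127 probes in all. The choice used names only, and no measured value. The set held 12 SRSF genes, 22 HNRNP genes, 9 genes of SF3A and SF3B, 3 U2AF genes, 13 SNRP genes, 13 PRPF genes, 4 CWC genes, SREK1 and SREK1IP1. By its name alone it also took in HNRNPU-AS1 and the pseudogenes HNRNPKP3 and SNRPD2P2. HNRNPU-AS1 is named as antisense, but the array's annotation places its probes on the same strand as those of HNRNPU. In the current RefSeq gene table SF3B14 is SF3B6 and PRPF4B is PRP4K, and the names of the array are kept below.

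RNA was taken from MKN74 and MKN45, established gastric cancer (GC) cell lines, 48 hrs after electroporation with 50 nM siRNA. In each line, cells with an siRNA against SET7/9 were set against cells of the same line with a negative control siRNA. SET7/9, whose gene symbol is SETD7, is a lysine methyltransferase that places a single methyl group on lysine 4 of histone H3 and also methylates other proteins. Each line was measured on 1 Agilent array with a pair of dyes, Cy5 for the knockdown cells and Cy3 for the negative control cells on both arrays. A log2 ratio below 0 therefore means a lower signal in GC cells with SET7/9 knockdown. The study used more than 1 siRNA against SET7/9, and the one behind these arrays is not given in the sources used here. With 1 array per line, no dye swap, and both arrays on the same slide, neither line has a test of its own, and a dye effect that a probe shows on both arrays cannot be told apart from an effect of the knockdown.

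Pre-mRNA splicing is carried out by the spliceosome, which is assembled on each intron from small nuclear ribonucleoproteins (snRNPs) and many further proteins. SNRP genes encode the proteins that sit on the small nuclear RNAs, U2AF and the SF3A and SF3B subunits mark the 3′ splice site and the branch point, and PRPF and CWC proteins build and remodel the catalytic centre. SR proteins (SRSF genes) bind exonic sequences and help to recruit this machinery, while hnRNP proteins coat the nascent RNA and often work against them.

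The targeted gene was checked first. At one SETD7 probe the log2 ratios were -2.03 (MKN74) and -1.95 (MKN45), and at another, upstream of it in the gene, they were 0.24 and -0.23. The epithelial markers EPCAM, CDH1, KRT8, KRT18 and KRT19 were well above background in both channels at all their probes in both lines. Of markers of other cell types, COL1A1 (fibroblasts) and DES (muscle) were also well above background in both channels in both lines, whereas COL1A2 was in neither. Of 3 probes for PECAM1 (endothelium) and 5 for PTPRC (leukocytes), only 1 PTPRC probe in MKN45 reached this in both channels. The samples are cell lines and no tissue, and the source of these marker signals was not tested. Repeated spots of a probe had a pooled SD of 0.087 (log2) in MKN74 and 0.0987 in MKN45.

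The probes on which the results below turn are shown first. All are DNA written 5′ to 3′ in the sense of the transcript, with coordinates on GRCh37. Where a probe may lie in an untranslated region only its first 30 bases are given, and probes of 60 bases are complete. Both SREK1IP1 probes lie on the minus strand of chromosome 5, at chr5:64017437-64017496 (probe A) and chr5:64018887-64018946 (probe B), and the CWC27 probe lies on the plus strand at chr5:64314286-64314345.
SREK1IP1 probe A: tttgcatctggaactagattatctggcact
SREK1IP1 probe B: taggtagcccttatgtccactaaagtaaat
CWC27: atcttgttttgcaaattgtggaatgatgta

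HNRNPA2B1 had 3 probes on the minus strand of chromosome 7. Probe A, at chr7:26240974-26241033, carried an Ensembl transcript as its leading annotation where the others carried a RefSeq mRNA, and probe B lay at chr7:26240222-26240281. These are printed because the ratio of probe A differed from those of the others.
HNRNPA2B1 probe A: cctgcggtgcgagggtgtggaatcctccag
HNRNPA2B1 probe B: acgagtccggttcgtgttcgtccgcggaga

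The single probe of SF3B4 lay at chr1:149898509-149898568 on the minus strand, and the SNRPC probe that stood past 1.5-fold in MKN45 lay at chr6:34730394-34730453 on the plus strand.
SF3B4: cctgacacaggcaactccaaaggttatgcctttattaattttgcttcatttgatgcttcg
SNRPC: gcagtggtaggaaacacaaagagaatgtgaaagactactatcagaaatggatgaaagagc

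As a whole the splicing factors were well detected and their ratios stayed close to 0 in GC cells with SET7/9 knockdown. A probe was kept in a line if at least 1 channel was well above background. This left 122 of the 126 probes (75 genes) in MKN74 and 123 probes (76 genes) in MKN45, or 96.8% and 97.6% against 60.6% and 66.9% of all gene probes. For 118 probes no channel was dim on either array. Among probes with both channels well above background, 108 of 118 in MKN74 and 113 of 121 in MKN45 had a log2 ratio within 0.29 of 0 on either side, which is 91.5% and 93.4% against 86.1% of all such gene probes in each line. Splicing factor probes were brighter than most, with a Cy3 signal above the array's 75th percentile for 69.0% and 73.8% of them. Among all gene probes that bright the share was 93.8% in MKN74 and 95.1% in MKN45. The shares of the splicing factors above include dim probes and are not like these. Of the 87 bright splicing factor probes in MKN74 only those of HNRNPH2 and SF3A1 and a probe of HNRNPC lay further from 0. Of the 93 in MKN45 only that of HNRNPA0 and a probe of HNRNPD did. With the brightest kept probe of each gene, the median log2 ratio of the splicing factors was -0.02 in MKN74 and -0.03 in MKN45, beside 0.01 in each line for all genes chosen in the same way. In MKN74, 39 genes were below 0 and 36 above, and in MKN45 45 were below and 31 above.

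The cutoff of the study was 1.5-fold, a log2 ratio of 0.58 in size. In MKN74, 4 of the 122 probes were lower by at least this much, beside a background of 1.76% of all kept gene probes, and 1 was higher, beside 3.78%. In MKN45, 3 of the 123 probes were lower, beside 1.97%, and 1 was higher, beside 4.81%. The lower calls were both SREK1IP1 probes, HNRNPA2B1 probe A and SF3B4 in MKN74, and SREK1IP1 probe A, HNRNPA2B1 probe A and the SNRPC probe in MKN45. The higher calls, HNRNPK in MKN74 and SNRPD3 in MKN45, came from probes whose Cy3 channel was not well above background. Probes of 71 of the 77 genes kept in at least 1 line were within the cutoff throughout. The same count over all genes was not made, so that this number is no trait of the splicing factors.

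**Figure D1:**
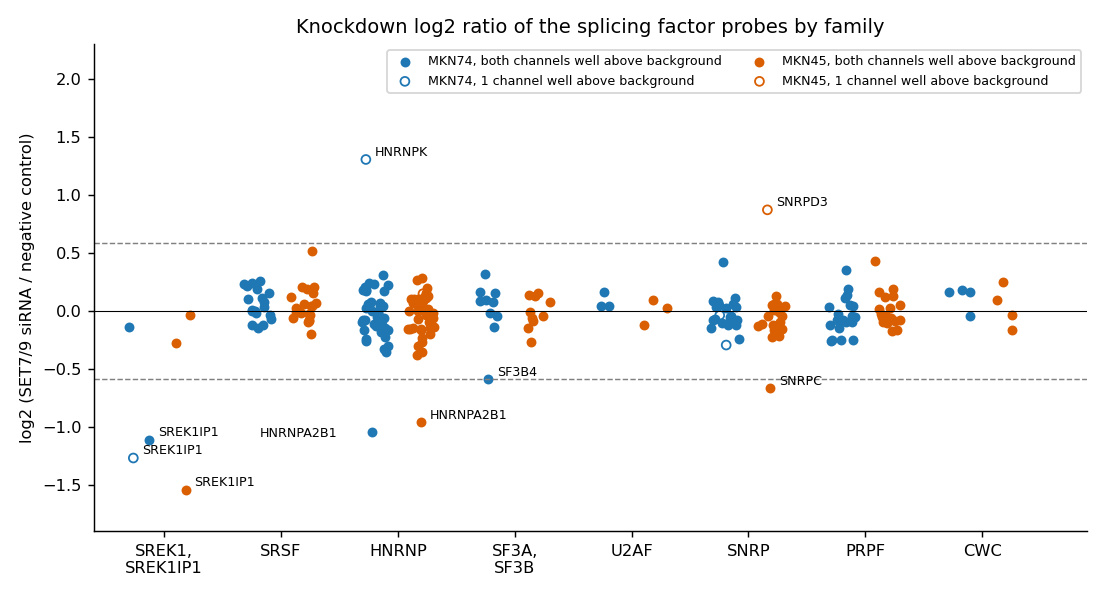
Log2 ratio of SET7/9 siRNA over negative control (vertical axis) for each kept splicing factor probe, by gene family (horizontal axis), in MKN74 (blue) and MKN45 (orange), with dashed lines at 1.5-fold and open circles for probes with 1 dim channel. In MKN74 4 probes lie below and 1 above the dashed lines, and in MKN45 3 lie below and 1 above.

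Requiring both channels to be well above background left 3 of 118 lower and 0 higher in MKN74, beside 1.45% and 0.64% of all gene probes so filtered. In MKN45 it left 3 of 121 lower and 0 higher, beside 1.62% and 0.814%. None of these calls came from a bright probe. Of the 87 splicing factor probes in MKN74 whose Cy3 signal was above the array's 75th percentile, 0 were past the cutoff in either direction, beside 0.234% lower and 0.141% higher among all such gene probes. The same held for the 93 bright probes in MKN45, beside 0.0703% lower and 0.176% higher. Of the 121 splicing factor probes kept on both arrays, 2 were lower in both lines, SREK1IP1 probe A and HNRNPA2B1 probe A, beside 0.373% of all gene probes, and 0 were higher in both, beside 0.75%. Each share here is read beside its background, and at counts this small a single probe moves it by nearly 1 percentage point.

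SREK1IP1, which encodes a small protein named for its binding to the SR-related splicing regulator SREK1, had the lowest ratios of the set in both lines. The study picked SREK1IP1 for follow-up from these same arrays, so that its ratio here is no independent evidence of a change. Apart from the arrays, the study reported its lower expression by RT-PCR and qRT-PCR in both lines. At probe A the processed signal was 145.1 in the negative control and 67.2 with SET7/9 siRNA in MKN74, and 129.4 and 44.5 in MKN45. The log2 ratio was -1.11 in MKN74 (2.16-fold lower) and -1.54 in MKN45 (2.91-fold lower), with errors of 0.24 and 0.26, which the scanner software estimates from a model of spot noise. The control level of probe A, relative to each array's 75th percentile, was nearly equal in the lines, 0.02 higher (log2) in MKN45. Both lines thus started from a like signal at this probe.

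Probe B of SREK1IP1 was much dimmer, with control signals of 21.9 in MKN74 and 17.5 in MKN45. With SET7/9 siRNA it was 9.1 in MKN74, not well above background, and 14.5 in MKN45. For MKN74 this gave a bound of at least 2.18-fold lower, beside a software log2 ratio of -1.27 with an error of 0.47. The bound sets the control signal against the knockdown signal, or the lowest signal well above background in that dye if this is higher. It makes no allowance for spot noise. In MKN45 neither channel was dim by this measure, and the log2 ratio was -0.28, smaller than its error of 0.40. In MKN45 the SREK1IP1 probes stood 1.26 apart on the log2 scale, the widest gap of any splicing factor gene on either array among probes with both channels measured. In MKN74 they stood 0.16 apart, as a difference of software ratios.

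SREK1 itself, the partner after which SREK1IP1 is named, had a log2 ratio of -0.14 in MKN74 and -0.04 in MKN45, each within its error of 0.21 and 0.20. CWC27, a cyclophilin-type protein of the spliceosome, had ratios of 0.16 and -0.04 with errors of 0.20 in both lines. Its control level was 2.29-fold lower in MKN45 than in MKN74, while those of the SREK1IP1 probes differed by 1.10-fold and 1.01-fold. CWC27 is the neighbour of SREK1IP1 on chromosome 5 and is read in the opposite direction from a start close to that of SREK1IP1. In the RefSeq table on GRCh38.p14, 226 bases lie between the start of SREK1IP1 on the minus strand and the nearer start of CWC27 on the plus strand, chr5:64768692-64768917. They are printed because both genes share them as upstream sequence and only SREK1IP1 had ratios past the cutoff. The plus strand is given, and capitals mark matches on either strand to CCGGAA at bases 12 to 17 and to CCAAT at bases 215 to 219, both on the minus strand.
SREK1IP1 to CWC27: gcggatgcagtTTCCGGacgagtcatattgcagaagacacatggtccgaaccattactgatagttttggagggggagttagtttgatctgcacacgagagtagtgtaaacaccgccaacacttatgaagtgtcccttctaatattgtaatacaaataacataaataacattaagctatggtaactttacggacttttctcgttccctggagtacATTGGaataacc

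The same letters were counted in all promoters of the table, each spanning 250 bases before to 50 after a start, on both strands. Of the 78 names, 68 matched a gene there. CCGGAA was in the window of 34 of these 68 genes (50.0%) and of 20.1% of all 27305 genes, and CCAAT in 35 (51.5%) and 39.7%. GGGCGG was in 41 (60.3%) and 48.3%, TATAAA in 10 (14.7%) and 14.0%, and TGACGTCA in 0 and 2.25%. A gene with several windows was counted if any window held the letters, and each motif was searched separately, so that matches of different motifs may overlap. The matches are a description of the windows and not of bound sites.

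Among the hnRNP genes HNRNPA2B1, whose protein binds nascent and small RNAs, was the only one with a probe past the cutoff in both lines. At probe A the signals were 33.8 in the negative control and 16.4 with SET7/9 siRNA in MKN74, and 43.3 and 22.2 in MKN45. The log2 ratios were -1.04 with an error of 0.33 and -0.96 with an error of 0.28. Probe B and the remaining probe, annotated to a RefSeq mRNA of the gene, did not follow. Probe B had control signals of 8929 and 11084 and log2 ratios of 0.06 and 0.01, and the remaining probe had control signals of 12957 and 14720 and ratios of -0.13 and -0.15. The ratios of probe A thus stood apart from the other two by more than their errors in both lines, and no statement on the gene as a whole can be drawn from it.

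The other abundant hnRNP genes were within the cutoff at every probe with both channels measured. HNRNPA1, a regulator of many alternative exons, had ratios of 0.18, 0.00 and -0.06 in MKN74 and 0.20, -0.03 and 0.00 in MKN45 at its 3 probes. HNRNPC, which binds uridine tracts in introns, had 0.17 and 0.17 at a pair of probes in MKN74 and 0.13 and 0.07 in MKN45. Its remaining probe gave -0.36 and -0.27, and the array's annotation places this probe on chromosome 2 (chr2:190788815-190788876), whereas the gene lies on chromosome 14. It is printed here in full because of that placing.
HNRNPC remaining probe: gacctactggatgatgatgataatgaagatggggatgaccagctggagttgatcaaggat

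HNRNPK, which binds cytidine-rich RNA, had ratios of 0.08 and -0.08 in MKN74 and 0.09 and -0.06 in MKN45 at its bright probes. Its dim probe, annotated to 1 transcript, had signals of 6.7 in the negative control and 16.7 with SET7/9 siRNA in MKN74. The control signal was not well above background and the bound did not exceed 1-fold, so that no fold is given for it. In MKN45 the same probe had signals of 13.2 and 14.7. The median over hnRNP genes, with the brightest probe of each, was -0.02 in both lines (21 genes), with 9 genes above 0 and 12 below in each.

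A pair of HNRNPA3 probes carried the same coordinates, chr2:178080329-178080388, but differed at 3 of 60 bases. They cannot both match that site in full. The differences were A14G, G42T and C59G, counted from the 5′ end with the base of the first probe given first. The differing bases are in capitals.
HNRNPA3 first probe: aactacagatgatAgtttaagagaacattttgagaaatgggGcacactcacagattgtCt
HNRNPA3 second probe: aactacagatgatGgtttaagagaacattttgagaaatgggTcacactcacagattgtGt

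The first gave -0.12 in MKN74 and 0.00 in MKN45, and the second -0.18 and -0.09. Control signals were 4436.5 in MKN74 and 2731.5 in MKN45 at the first, and 1179.1 and 683.8 at the second. The remaining probes of HNRNPA3 gave 0.18, -0.01 and -0.26 in MKN74 and 0.28, 0.10 and -0.16 in MKN45, so that this pair lay within the spread of the gene. HNRNPA1L2, a gene closely related to HNRNPA1, had 5 probes, of which 4 gave 0.07 to 0.24 in MKN74 and 0.11 to 0.15 in MKN45. The last gave -0.17 and -0.24. Its annotation also lists transcripts of HNRNPA1, as do those of 3 of the other probes, so that signal of these genes cannot be told apart there.

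The SR proteins had no probe past the cutoff in either line, in 19 kept probes in MKN74 and 21 in MKN45. The median over genes was 0.06 (10 genes) and 0.03 (12 genes), with 7 genes above 0 in each line. SRSF1, the prototype of the family, had 0.19 in both lines with errors of 0.24 and 0.21. SRSF2 had 0.10 and 0.08 in MKN74 and 0.06 and 0.04 in MKN45, and SRSF3 had 0.21 and 0.00 in MKN74 and 0.12 and -0.03 in MKN45. SRSF7 was slightly below 0 at both probes, -0.03 and -0.13 in MKN74 and -0.09 and -0.01 in MKN45. All of these values were close to or smaller than their errors of 0.20 to 0.24. SRSF12, a gene whose probe was not well above background in either channel in MKN74, was measured in MKN45 only, with signals of 18.6 and 26.6 and a ratio of 0.52 (error 0.34), the highest of the set in that line with both channels measured. SRSF4 had no value in MKN74, where its spot was marked as an outlier, and -0.02 in MKN45.

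In the SF3A and SF3B subunits and U2AF, which recognise the branch point and the 3′ splice site, a single probe passed the cutoff. SF3B4, an RNA-binding subunit of SF3B, had signals of 156.0 and 103.7 in MKN74 and 103.5 and 86.1 in MKN45. Its log2 ratio was -0.59 (error 0.22) in MKN74, at the edge of the cutoff (1.51-fold), and -0.26 (error 0.21) in MKN45. The highest ratio in this group was 0.32 (error 0.21) for SF3A1 in MKN74, with 0.14 in MKN45. SF3B1, the large subunit that grips the branch point, had 0.15 and -0.04. U2AF1, which reads the AG at the end of the intron, had 0.16 and 0.03, and U2AF2, which binds the polypyrimidine tract, had 0.04 and 0.09.

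Of the snRNP proteins, SNRPC, the U1 protein that steadies pairing at the 5′ splice site, was past the cutoff at 1 of its probes in MKN45. That probe had signals of 64.6 and 40.7 in MKN45, a log2 ratio of -0.67 (error 0.24), and signals of 53.2 and 50.2 in MKN74, a ratio of -0.08. The other SNRPC probe, with control signals of 20834 and 16906, gave -0.12 and -0.11. SNRPD3, a subunit of the Sm ring, gave -0.15 and -0.22 at its bright probe. At its dim probe the control signals, 12.5 in MKN74 and 13.9 in MKN45, were not well above background on either array, and the bound in MKN45 was at least 1.63-fold higher.

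SNRPA, the U1 protein that binds a loop of U1 RNA, had -0.08 and -0.05, and SNRPB, another Sm protein, had -0.24 and -0.22, the lowest brightest-probe values of the family in both lines. SNRPN, the imprinted relative of SNRPB, was not well above background in Cy3 on either array and has no fold. SNRPE, an Sm protein with 4 probes, gave 0.08 to 0.11 at 3 of them in MKN74 and 0.42 (error 0.31), the highest of the set in that line with both channels measured, at a dim probe that gave -0.16 in MKN45. The median over SNRP genes was -0.07 in MKN74 (13 genes) and -0.12 in MKN45 (12 genes), with 9 genes below 0 in each.

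PRPF and CWC genes had 0 probes past the cutoff among 20 and 4 probes in each line. PRPF8, the scaffold of the catalytic centre, had -0.08 and 0.13, and PRPF19, the core of the complex named after it, had -0.10 and -0.17. PRPF18, a factor of the second catalytic step, came next after SNRPE in MKN74 and after SRSF12 in MKN45. Its dim probe gave 0.36 (error 0.30) in MKN74 and 0.43 (error 0.27) in MKN45, from control signals of 26.9 and 32.5, while its other probe gave -0.10 and -0.08. With normexp and loess, described below, the dim probe gave 0.06 and -0.04. The median was -0.05 in both lines for PRPF genes (13 genes). It was 0.16 and 0.03 for CWC genes (4 genes).

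Agreement between probes of a gene was described for genes with at least 2 kept probes, which share the RNA and the array and are no replicates. In MKN74, 2 of 31 splicing factor genes had probes at least 1.5-fold apart (6.45%), beside 8.68% of all 3779 genes with several kept probes. In MKN45 it was 3 of 31 (9.68%), beside 11.4% of 4198 genes. The genes were HNRNPA2B1 and HNRNPK in MKN74, and HNRNPA2B1, SREK1IP1 and SNRPD3 in MKN45. The median range between probes was 0.18 in each line, beside 0.18 and 0.20 for all genes. All probes of a gene had the same sign in 16 of 31 splicing factor genes in MKN74 (51.6%, beside 54.6%) and in 13 of 31 in MKN45 (41.9%, beside 51.9%).

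**Figure D2:**
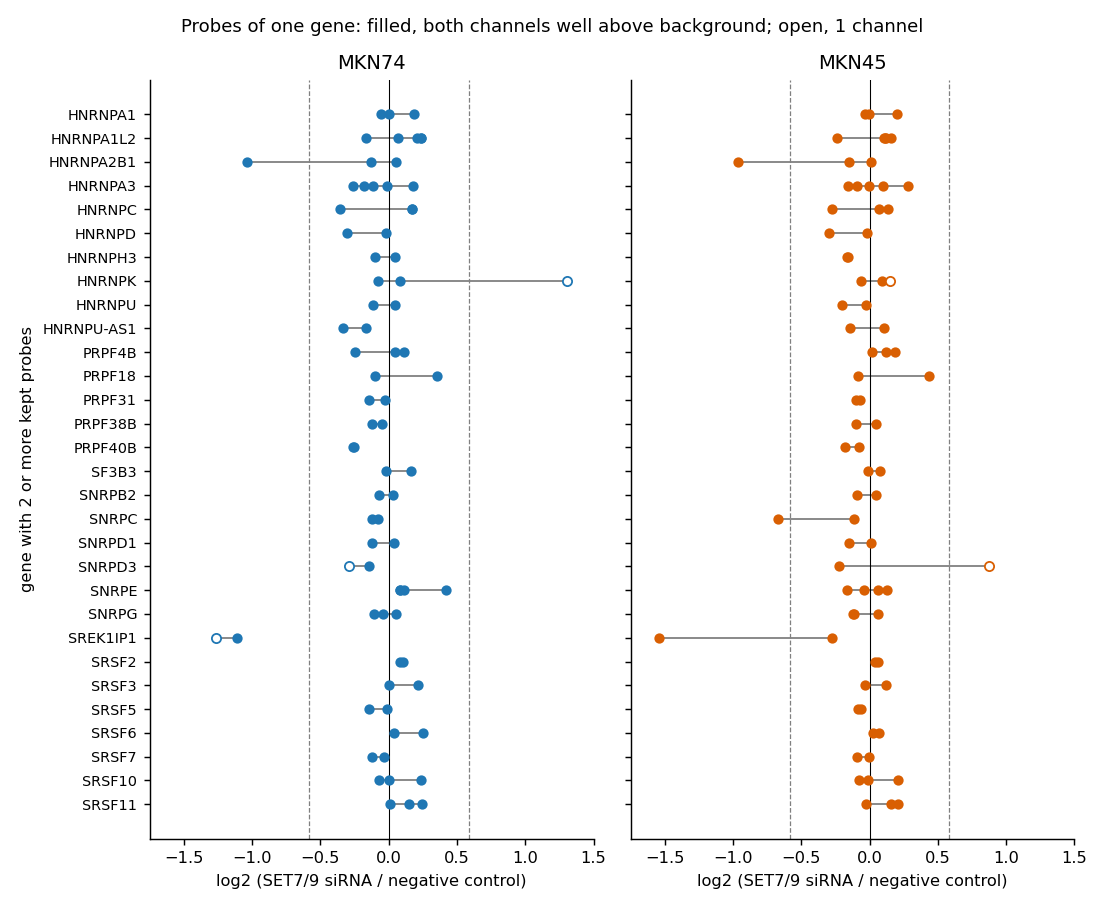
Log2 ratio of SET7/9 siRNA over negative control (horizontal axis) at each kept probe of splicing factor genes with several probes (vertical axis), in MKN74 (left) and MKN45 (right); filled circles have both channels well above background, open circles 1 channel, grey lines join the probes of a gene and dashed lines mark 1.5-fold. The median span was 0.18 in each line, and the long lines of HNRNPA2B1 (both lines), HNRNPK (MKN74), SREK1IP1 and SNRPD3 (MKN45) each end at a probe apart from the rest of its gene.

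The pattern within genes was alike on both arrays. Over the 73 probes of 29 genes that were measured in both channels of each array, the deviation of a probe from the mean of its gene had a Pearson correlation of 0.794 (Spearman 0.694) between the lines. It was 0.756 (0.70) over 71 probes, with probes past the cutoff left out of the correlation but kept in the gene means. The deviations of the other HNRNPA2B1 and SNRPC probes thus still depended on them. For all genes with several probes measured in both channels of each array the correlation was 0.438 (0.438) over 6875 probes. These are descriptions over probes, which share the slide, the scan and the dye orientation. HNRNPC, HNRNPA1L2 and HNRNPA3 above are examples in which the same probe was the lowest of its gene in both lines. The GC content of the 60-base probes had a median of 40.0% in the set and 43.3% over all gene probes, and its correlation with the ratio over the 118 probes was -0.191 in MKN74 and -0.146 in MKN45, beside -0.008 and -0.018 over all 17362 gene probes.

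The ratios themselves also followed each other between the lines. Over the 118 probes the Pearson correlation was 0.794 (Spearman 0.686), and 0.662 (0.66) over the 114 without probes past the cutoff. Over all 17362 such gene probes it was 0.393 (0.402). Since splicing factor probes were brighter than most, the bright ones were set side by side, and the correlation was 0.81 over 85 splicing factor probes and 0.545 over 7148 gene probes with Cy3 above the 75th percentile in both lines. The part of the shared dye orientation in this likeness was not tested.

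**Figure D3:**
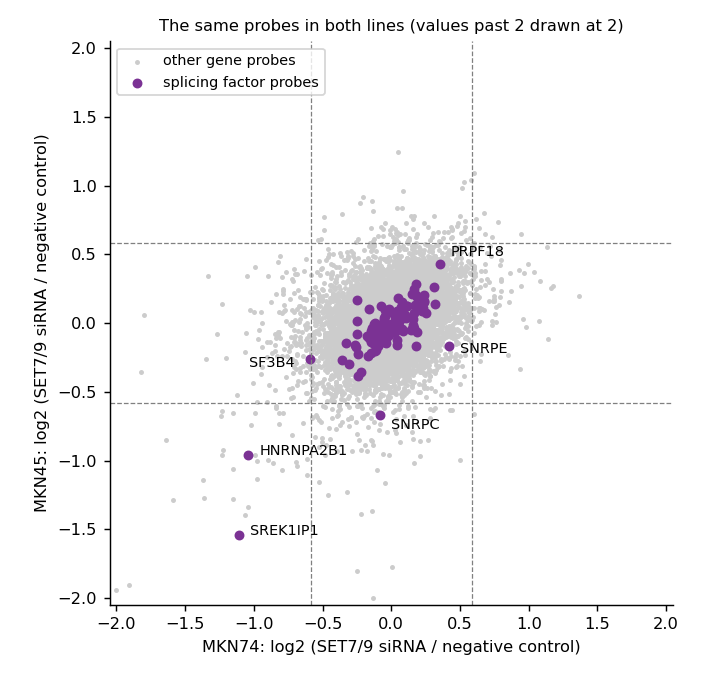
Log2 ratio in MKN45 (vertical axis) against MKN74 (horizontal axis) for splicing factor probes (purple) and all other gene probes (grey) measured in both channels of each array, with dashed lines at 1.5-fold and grey points past 2 drawn at 2 on either axis. SREK1IP1 probe A at -1.11 and -1.54 and HNRNPA2B1 probe A at -1.04 and -0.96 are the only purple points past the cutoff in both lines, while SF3B4 (-0.59 and -0.26) is past it in MKN74 alone and SNRPC (-0.08 and -0.67) in MKN45 alone.

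The only test across arrays that the design allows treats the 2 lines as replicates of 1 response, in limma, with 1 residual degree of freedom. With the ratios of the scanner software, 0 of the 121 splicing factor probes had an adjusted p under 0.05, beside 0.0% of all 19595 probes tested. At an unadjusted p under 0.05 there were 13 of 121, 9 of them lower, beside 13.1% of all. The smallest unadjusted p values in the set were 0.000485 for HNRNPA2B1 probe A (limma adjusted p = 0.255) and 0.00162 for SREK1IP1 probe A (mean -1.32, SE 0.14, limma adjusted p = 0.327). Each was lower in 2 of 2 lines.

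The count from this test was different when background correction and dye normalization were changed together. With normexp (a model-based background correction) with an offset of 50 added to the signals, and loess dye normalization, 16 of the 121 probes, of 14 genes, passed at an adjusted p under 0.05 (13.2%), beside 8.72% of all. Of these, 8 were lower and 8 higher, and their mean ratios were 0.22 to 0.73 in size. SREK1IP1 probe A was the single one past 1.5-fold, with -0.67 in MKN74 and -0.78 in MKN45 (mean -0.73, limma adjusted p = 0.000198). HNRNPA2B1 probe A gave -0.32 and -0.25 (adjusted p = 0.0206). An offset of 50 by its construction draws ratios of signals as low as those of this probe toward 0, so that the smaller values here say nothing on whether its ratio holds. For dim probes it also draws the ratios of the 2 arrays toward each other, and their spread enters the error of this test. Over all probes 0 passed with the scanner ratios and 1708 here, so that these adjusted p values depend on the processing. The other lower probes were of HNRNPC (the probe placed on chromosome 2), HNRNPA1L2 (the probe below 0 above), HNRNPA0, HNRNPUL2, SNRPB and HNRNPA3. The higher ones were of HNRNPA1, SF3A1, HNRNPH2, HNRNPA3, CWC22, SF3A2 and, at 2 probes, SRSF11. HNRNPA3 and the pair HNRNPA1 and HNRNPA1L2 thus had probes on either side of 0.

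**Figure D4:**
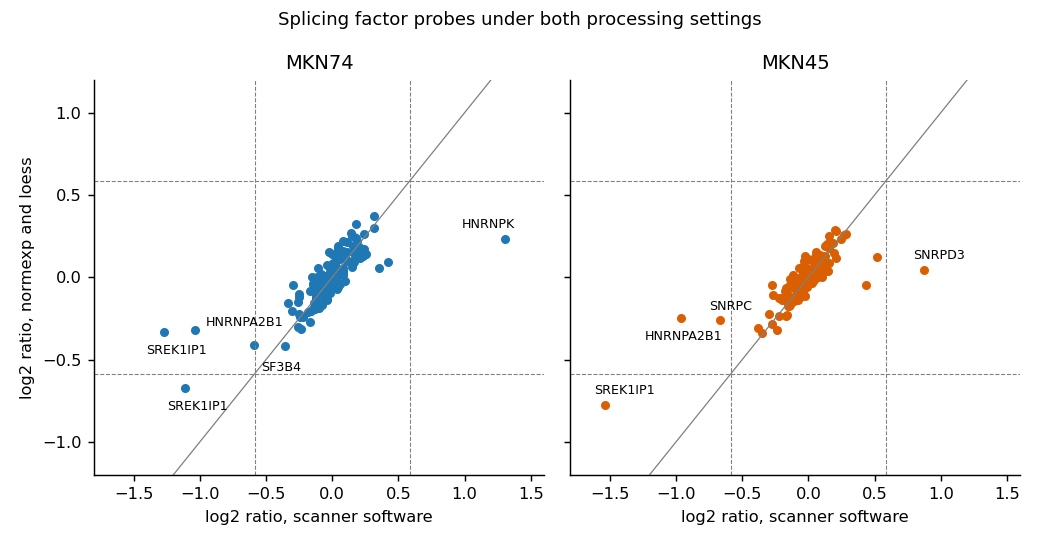
Log2 ratio of each kept splicing factor probe after normexp and loess (vertical axis) against that of the scanner software (horizontal axis) in MKN74 (left) and MKN45 (right), with the line of equality in grey and dashed lines at 1.5-fold. Near 0 the points follow the line of equality, and the labelled dim probes lie closer to 0 on the vertical axis, as the offset of 50 makes them do, with SREK1IP1 probe A alone past the lower dashed line at -0.67 and -0.78.

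Among the splicing factor probes printed 10 times on each array, the spread over spots was small beside the software's error of 0.20 to 0.21. HNRNPH2 gave 0.31 with an SD over spots of 0.05 in MKN74 and 0.27 with an SD of 0.04 in MKN45. SRSF11 gave 0.24 (SD 0.07) and 0.16 (SD 0.05). The probes of HNRNPH3, SNRPD1 and SNRPF printed 10 times were below 0 in both lines. They gave -0.10, -0.12 and -0.05 in MKN74 and -0.16, -0.15 and -0.14 in MKN45, with SDs of 0.02 to 0.05. Other probes of these genes, with a single spot, did not all follow. The other SNRPD1 probe gave 0.04 in MKN74 and 0.01 in MKN45, and that of HNRNPH3 0.04 and -0.16. The other SRSF11 probes gave 0.01 and -0.03, and 0.15 and 0.21. The spots of a probe share the RNA, the dyes and the probe, so that this spread is that of the measurement on 1 array.

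The control level, the Cy3 signal of the negative control cells less the array's 75th percentile, was compared between the lines probe by probe, for the 119 splicing factor probes with Cy3 well above background on both arrays. Of these, 20 (16.8%) were at least 1.5-fold lower in MKN45 and 24 (20.2%) at least 1.5-fold higher, beside 28.1% and 27.9% of all 17414 gene probes. With 1 array per line these differences have no test. The largest differences were 4.93-fold lower in MKN45 for SF3B14, a protein that contacts the branch point, 2.96-fold lower for U2AF1L4, a relative of U2AF1, and 2.63-fold lower for SNRPB. In the other direction they were 5.72-fold higher for a PRPF4B probe, 4.72-fold for an SF3B3 probe and 3.89-fold for an HNRNPD probe. By family, 8 of 20 PRPF probes were higher in MKN45 and 2 lower, 6 of 19 SR protein probes were higher and 1 lower, 4 of 40 hnRNP probes were higher and 7 lower, and 1 of 20 SNRP probes was higher and 6 lower. These family counts are small and were not compared by a test.

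Where a gene had several probes, they often disagreed in this comparison. Differences of a gene's probes were at least 1.5-fold apart for 12 of 30 splicing factor genes (40.0%), beside 42.8% of all 3108 genes. HNRNPD was lower in MKN45 by 0.97 (log2) at 1 probe and higher by 1.96 at the other. All probes of a gene with several were at least 1.5-fold lower in MKN45 for 2 of 30 genes, beside 18.8% of all such genes, and at least 1.5-fold higher for 2 of 30, beside 15.6%. PRPF4B, a kinase that acts on the spliceosome, was higher in MKN45 at 3 of 3 probes (2.47-fold to 5.72-fold) and PRPF38B, a factor of spliceosome activation, at 2 of 2 (the larger difference 2.78-fold). HNRNPK was lower at both bright probes (-0.61 and -0.68), and SNRPB2, a U2 protein, at both (-0.93 and -0.90).

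**Figure D5:**
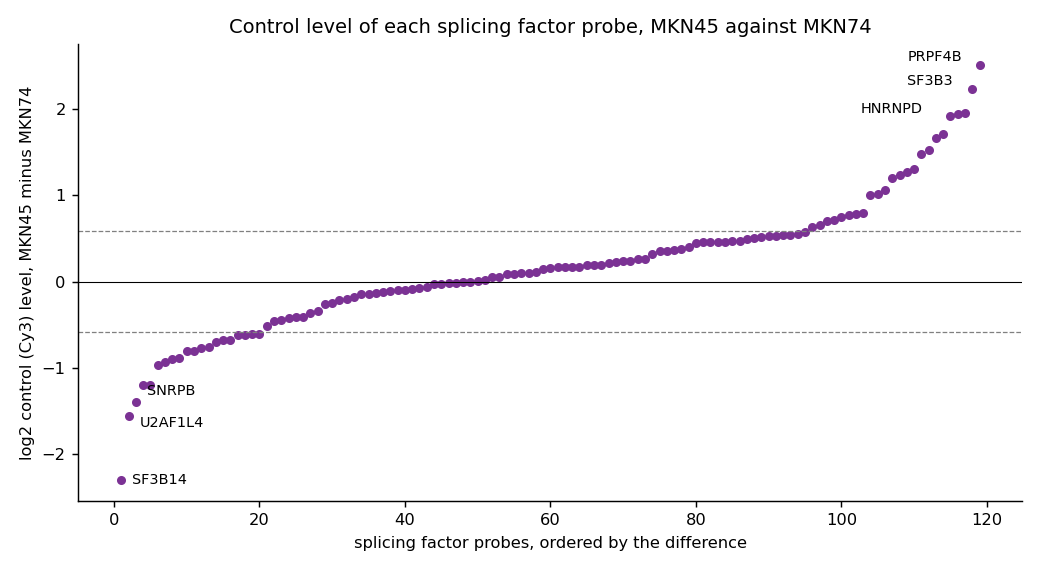
Difference in log2 control (Cy3) level between the lines, MKN45 minus MKN74, for the 119 splicing factor probes measured in both (vertical axis), ordered by that difference (horizontal axis), with dashed lines at 1.5-fold. The points run from -2.30 for SF3B14 to 2.52 for PRPF4B, with 20 below and 24 above the dashed lines.

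A second list held 95 further genes on the array, with 131 probes, that act in splicing or regulate it. In MKN74, 0 of its 125 kept probes were lower by 1.5-fold and 3 were higher, and in MKN45 0 of 125 were lower and 1 was higher, with 0 past the cutoff in both lines in 1 direction. The backgrounds are those of the first counts above. A single one of these calls had both channels well above background, KHDRBS3, an RNA-binding protein of the STAR family, with 0.75 (error 0.24) in MKN74 and 0.07 in MKN45. The others had a dim Cy3 channel. For TIAL1 and NOVA2 in MKN74 no bound above 1-fold could be given, and for QKI in MKN45 it was at least 1.27-fold higher. Among probes with both channels measured, the next largest ratios in size were 0.48 for a second KHDRBS3 probe and -0.52 for a WTAP probe in MKN74. In MKN45 they were 0.46 for XAB2, -0.42 for GEMIN2 and 0.37 for MBNL3. The medians over genes were 0.00 in MKN74 (94 genes) and 0.01 in MKN45 (93 genes).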

How the data were processed

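The authors deposited Agilent Feature Extraction 10.7.3.1 output for 2 arrays, with spot intensity per channel on a linear scale and a dye-normalized log10 ratio of Cy5 over Cy3 with the error of the software's model. They also deposited a table of log2 ratios. Here log2 ratios were computed from the log10 ratios. Control spots and spots marked as outliers (549 in MKN74, 534 in MKN45) were dropped and repeats averaged, and a probe stayed in a line if 50% or more of its spots were well above background in at least 1 dye. Fold bounds for probes with a dim channel used channels scaled across arrays (Aquantile) and are open to dye bias and spot noise. The shared response was fitted in limma 3.58.1 (R 4.3.3), 2-sided, with Benjamini-Hochberg adjustment over all probes, and the fit was tested on simulated data. The number of arrays, 1 per line, limits the precision. Names matched the RefSeq table for 118 of 126 probes, and sequences were read from the scanner output and from RefSeq promoters (GRCh38.p14).

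Genes named were SREK1IP1, SREK1 and CWC27, probes past the cutoff in both lines, the 3 largest rises and falls per line, the 3 widest probe ranges per line, the 3 largest control differences each way, representatives of each family, SETD7, and the largest changes of the second list. HNRNPA1L2, HNRNPA3 beyond 1 probe, the genes printed 10 times, the further control differences and the genes of the normexp fit were added after their values were seen. An item withheld from the text is not reported here, though it stays in the counts. The members and lists were chosen with earlier results of these data known.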

Additional observations from a re-analysis of the deposited data

How the results depend on the processing

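With normexp at an offset of 50 and loess, which change background correction and dye normalization together, splicing factor probes past 1.5-fold were 1 lower and 0 higher in MKN74, 1 lower and 0 higher in MKN45, and 1 lower in both lines. Over all gene probes, 43 of 20674 were lower and 43 higher in MKN74 in this setting. In MKN45 18 of 22830 were lower and 27 higher, and 5 of 19595 were lower in both lines. Genes with probes 1.5-fold apart were then 0 and 1, and the limma fit passed 16 splicing factor probes. Requiring both channels, or using the deposited table, left 0 higher in each line and 1 gene with probes apart in MKN74. Without a filter 2 probes were higher in MKN45, beside 1957 of all 34126 gene probes. At a 2-fold cutoff 1 was lower and 0 higher in MKN45, beside 173 and 436 of all 22830 gene probes. In both lines 1 was lower, beside 37 of 19595. At this cutoff 5 control levels were lower in MKN45, for which the share over all probes was not counted. For the second list normexp left 0 higher in either line, and both channels left 1 in MKN74 and 0 in MKN45. The deposited table also left 1 and 0 higher, and the 2-fold cutoff 0 and 1. Having no filter gave 1 lower in each line and 1 lower in both. Median centring, outlier spots kept and every other planned setting left the counts within 1.5 times the main value, and the median over genes moved by less than the spot SD under every setting. Of 12 named values past the cutoff, which include SETD7 and KHDRBS3, 4 stayed past it under normexp and loess. These were a probe of the targeted gene SETD7 and SREK1IP1 probe A, each in both lines. An offset of 50 draws ratios of dim probes toward 0 by construction, so that a call lost there does not bear on whether it holds. No paired analysis was possible because each line has 1 array, which holds both of its conditions. For the same reason no replicate could be left out. Low signal limits SREK1IP1 probe B and the dim probes of HNRNPA2B1, SNRPC, SNRPD3, HNRNPK and PRPF18.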
